A study of Mus musculus with 18 samples.

Results

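The 10 chemokine genes described here are Ccl2, Ccl5, Ccl7, Cxcl1, Cxcl2, Cxcl5, Cxcl10, Cxcl12, Cxcl14 and Cx3cl1. They were found by name among 55335 gene identifiers, and all 10 members had a row in the count tables. The RNA came from O9-1 cells, a multipotent NC (neural crest) cell line of wildtype genotype that was isolated from heads of mouse embryos, cultured in osteoblast differentiation medium and harvested on d2.5 or d5. On each day 3 groups of 3 libraries were compared. Ctrl + vehicle cells received a scrambled siRNA and no FGF2, Ctrl + FGF2 cells received the scrambled siRNA and the ligand FGF2, and Y/T dKD + FGF2 cells received siRNA pools against Yap and Taz (gene symbols Yap1 and Wwtr1) together with FGF2. All 6 groups were thus transfected and all were in the same medium, and no group combined the knockdown with vehicle. The labels call the day a batch, so time and batch cannot be told apart wherever levels of the 2 days are set side by side, and they do not say whether the replicates were separate cultures, so the p-values measure the spread between these libraries only, which may be technical.

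Chemokines are small secreted proteins that steer the migration of cells by binding to G protein-coupled receptors. CC chemokines such as Ccl2, Ccl5 and Ccl7 mainly attract monocytes and T cells, and CXC chemokines of the Cxcl1, Cxcl2 and Cxcl5 type attract neutrophils. Cxcl12 is made by mesenchymal and bone marrow stromal cells, where it holds haematopoietic cells in place through the receptor Cxcr4. Cx3cl1 (fractalkine) differs from the others in that it is made as a membrane protein with a mucin-like stalk, from which a soluble form can be shed. Inflammatory chemokines are usually induced through NF-kB, and Cxcl10 is known for its induction by interferons.

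Between 10377151 and 14698525 gene-assigned counts were read per library. Both siRNA targets were lower in every knockdown library than in every Ctrl + FGF2 library: Yap1 fell from 1868, 1731 and 1924 counts to 788, 841 and 881 on d2.5 and from 1728, 1805 and 1689 to 870, 809 and 689 on d5. Wwtr1 fell by 0.72 and 0.80 on the log2 scale (SE 0.036 and 0.038, adjusted p = 2.55e-15 and 4.92e-11), so transcripts of both targets remained. FGF2 itself moved the targets on d2.5, with 1 called higher and 1 lower. Against Ctrl + vehicle, the knockdown group had 1 target called lower and 1 not called on d2.5, and 2 called lower on d5. On d2.5, 1 target was thus not told apart from its vehicle level. Mesenchymal and osteoblast markers were present in every library. Of 11 neural crest markers, 9 had counts in every group, and their sum was 235 to 431 CPM per library. Sox10 and Foxd3, which define early neural crest, had 0 counts in all 18 libraries. Of 12 haematopoietic markers, Itgam, Lyz2, Tyrobp, Cd3e and Ms4a1 were at 0 in all 18 libraries, as were Cdh5 and Tie1 of 8 endothelial markers.

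Levels are given as counts, as CPM (counts scaled to library size, with TMM factors) or, where genes are compared with each other, as RPKM (CPM per kilobase of exon). A member was read as too low on a day when it did not pass the count filter of that day, which needs about 10 counts in 3 libraries. By this rule Ccl2, Ccl7, Cxcl1, Cxcl12 and Cx3cl1 were tested on both days. Ccl5, Cxcl5 and Cxcl10 were tested on d2.5 only, with 16, 63 and 55 counts left over the 9 libraries of d5. Cxcl2 had 3 counts and Cxcl14 had 94 counts over all 18 libraries, and both were too low to read on either day. Fold changes are on the log2 scale, and a gene was called at an adjusted p under 0.05 in edgeR's quasi-likelihood test over all tested genes.

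Cxcl12 and Cx3cl1 carried most of the chemokine counts. Together they made up 83.1% to 98.3% of the summed CPM of the 10 genes in each of the 18 libraries. CPM is not scaled to length, and these 2 genes have the longest exon length of the 10 (8176 and 3930 bases). Their share per length is therefore smaller. The summed CPM was 75.9 to 80.0 in Ctrl + vehicle on d2.5 and 540 to 571 in Ctrl + FGF2 on d5, and most of that range came from Cxcl12. Per length the 2 genes changed places: the RPKM of Cxcl12 was 0.036 to 0.042 times that of Cx3cl1 in Ctrl + FGF2 on d2.5 and 1.87 to 2.16 times that of Cx3cl1 in Ctrl + FGF2 on d5.

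Cxcl12, on chromosome 6 (117168535-117181367, plus strand, mm10), went in opposite directions under FGF2 on the 2 days. On d2.5 the Ctrl + vehicle libraries had 458, 473 and 381 counts, the Ctrl + FGF2 libraries 136, 112 and 144, and the Y/T dKD + FGF2 libraries 127, 126 and 115. All FGF2-treated libraries were below all vehicle libraries, and the 2 FGF2 groups overlapped. In CPM the level was 30.5 ± 1.08, 9.11 ± 0.84 and 9.79 ± 0.72 (SD, n = 3), a 3.37-fold decrease with FGF2 (log2 fold change -1.75, SE 0.084, adjusted p = 5.53e-18). The summed CPM of 9 mesenchymal and osteoblast markers was also lower with FGF2, at 35523 to 36213 in Ctrl + vehicle and 14853 to 15003 in Ctrl + FGF2 on d2.5, with 7 of 8 tested markers called lower. Its part in the Cxcl12 values was not tested. In a culture, fewer cells that express a gene and less RNA per cell cannot be told apart.

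On d5 the same gene had 808, 1338 and 1028 counts in Ctrl + vehicle, 4857, 5394 and 4723 in Ctrl + FGF2, and 5040, 4821 and 4302 in Y/T dKD + FGF2. Here every FGF2-treated library was above every vehicle library. The level was 94.9 ± 15.3 CPM without and 436 ± 11.3 CPM with FGF2 (SD, n = 3), a 4.62-fold increase (log2 fold change 2.21, SE 0.072, adjusted p = 3.18e-13). The mesenchymal and osteoblast sum was 75193 to 78163 CPM without and 44943 to 49183 CPM with FGF2 on that day. Single markers went both ways, with 4 of 8 tested called higher and 3 lower (median log2 fold change 0.064). Of all tested genes 47.2% were called, so the lower sum does not stand for each marker. The knockdown left Cxcl12 within a narrow interval of the FGF2 level on both days: the 95% interval of the log2 fold change was -0.13 to 0.31 on d2.5 (adjusted p = 0.58) and -0.19 to 0.082 on d5 (adjusted p = 0.577). The order of the 6 groups ran from both FGF2 groups of d2.5, which overlapped, through vehicle on d2.5 and vehicle on d5 to both FGF2 groups of d5, which overlapped as well.

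Cx3cl1, on chromosome 8 (94772009-94782427, plus strand), rose with FGF2 on both days. On d2.5 it had 513, 558 and 443 counts in Ctrl + vehicle, 1568, 1504 and 1634 in Ctrl + FGF2, and 1296, 1473 and 1369 in Y/T dKD + FGF2. That is 35.2 ± 0.90, 110 ± 0.64 and 110 ± 3.97 CPM (SD, n = 3), with a 3.09-fold increase under FGF2 (log2 fold change 1.63, SE 0.047, adjusted p = 1.17e-23). On d5 it had 716, 893 and 790 counts in Ctrl + vehicle, 1247, 1198 and 1190 in Ctrl + FGF2, and 1108, 1189 and 966 in Y/T dKD + FGF2. The vehicle level was higher on d5 than on d2.5 (72.4 ± 1.79 CPM), the FGF2 level was about the same (106 ± 8.53 CPM), and the increase was 1.48-fold (log2 fold change 0.56, SE 0.054, adjusted p = 1.59e-07). The libraries with and without knockdown overlapped on both days. On d2.5 the knockdown log2 fold change was between -0.087 and 0.078 (95% interval). On d5 it was -0.14 (SE 0.052), with an adjusted p of 0.0557, which became 0.0495 and 0.0386 without the first or second vehicle library and 0.0051 without the second Ctrl + FGF2 library. Of 19 alternative runs, 14 left this d5 value uncalled, with an adjusted p up to 0.272.

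**Figure D1:**
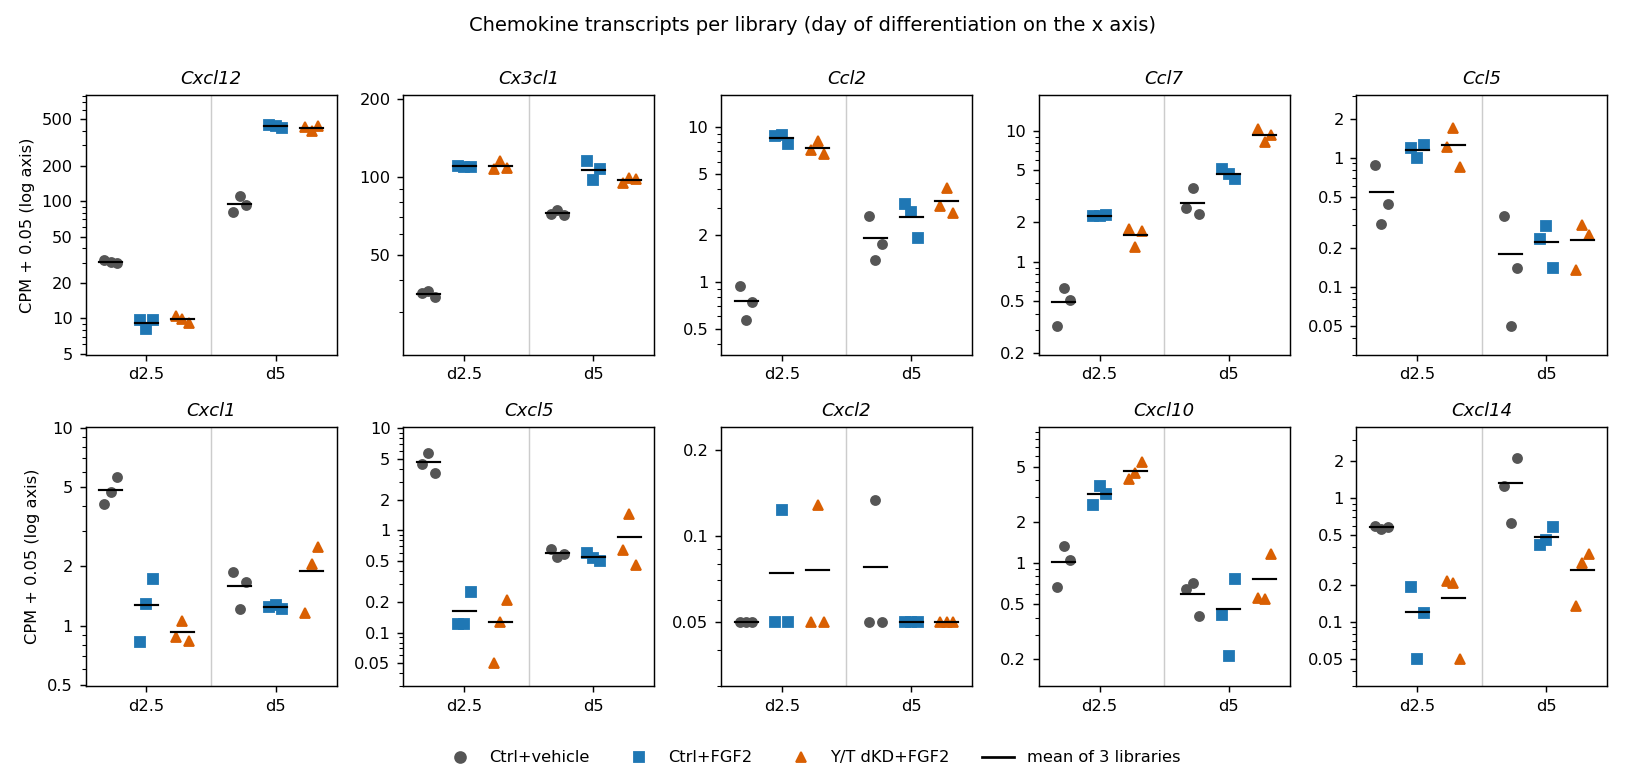
Level of each chemokine in every library, as CPM + 0.05 on a log axis, for 3 groups on d2.5 and d5 (points are libraries, bars are means of 3). Cxcl12 was lowest with FGF2 on d2.5 and highest with FGF2 on d5, Cxcl5 and Cxcl1 were highest in the vehicle libraries of d2.5, and Cxcl2 stayed at 0 or 1 count.

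The CC members Ccl2 and Ccl7 lie 8.3 kb apart on the plus strand of chromosome 11 (82035571-82037453 and 82045712-82047525) and were both higher with FGF2 on d2.5. Ccl2, a main attractant of monocytes, had 13, 8 and 9 counts in Ctrl + vehicle, 123, 122 and 115 in Ctrl + FGF2, and 85, 104 and 85 in Y/T dKD + FGF2. This was an 11.8-fold increase (log2 fold change 3.56, SE 0.20, adjusted p = 3.8e-16), from 0.70 ± 0.19 to 8.40 ± 0.63 CPM (SD, n = 3). Ccl7, a close relative that attracts the same cells, had 4, 9 and 6 counts in Ctrl + vehicle, 31, 30 and 33 in Ctrl + FGF2, and 21, 16 and 21 in Y/T dKD + FGF2. Its increase was 4.83-fold (log2 fold change 2.27, SE 0.31, adjusted p = 1.04e-07). All knockdown libraries of Ccl7 were below all Ctrl + FGF2 libraries on d2.5, but the difference did not pass the test (log2 fold change -0.51, upper bound of the 95% interval -0.025, adjusted p = 0.119). For Ccl2 the knockdown gave -0.21 (adjusted p = 0.224), with groups that overlapped in CPM.

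On d5 Ccl2 had 26, 16 and 19 counts in Ctrl + vehicle, 34, 34 and 21 in Ctrl + FGF2, and 36, 48 and 27 in Y/T dKD + FGF2. In CPM the Ctrl + FGF2 group overlapped both others, and all knockdown libraries were above all vehicle libraries. The FGF2 log2 fold change of 0.50 did not pass the test (SE 0.27, adjusted p = 0.145). Without the first vehicle library it was 0.79 (adjusted p = 0.0379), while 18 of 19 alternative runs left it uncalled (adjusted p up to 0.444). Only between the knockdown and vehicle groups was Ccl2 called (log2 fold change 0.84, adjusted p = 0.0153). That call was lost when any of 3 libraries was left out (adjusted p up to 0.0966) and in DESeq2 (adjusted p = 0.0681).

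Ccl7 rose in 2 steps on d5, first with FGF2 and again with the knockdown. It had 25, 43 and 25 counts in Ctrl + vehicle, 55, 57 and 47 in Ctrl + FGF2, and 121, 98 and 91 in Y/T dKD + FGF2, so no 2 groups overlapped. In CPM this was 2.78 ± 0.71, 4.63 ± 0.42 and 9.23 ± 1.07 (SD, n = 3). FGF2 raised it 1.66-fold (log2 fold change 0.74, SE 0.20, adjusted p = 0.00495) and the knockdown raised it a further 1.98-fold (log2 fold change 0.99, SE 0.16, adjusted p = 9.29e-05).

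Ccl5, on the minus strand of chromosome 11 (83525778-83530518) and known as an attractant of T cells, was near the limit of what could be read. On d2.5 it had 12, 4 and 5 counts in Ctrl + vehicle, 16, 13 and 18 in Ctrl + FGF2, and 14, 21 and 10 in Y/T dKD + FGF2. The FGF2 difference passed the test (log2 fold change 1.14, SE 0.39, adjusted p = 0.0112) but not in DESeq2 (adjusted p = 0.0636) nor without the second vehicle library (log2 fold change 0.80, adjusted p = 0.0825), and without the first vehicle library it was 1.75.

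Of the neutrophil-attracting members, Cxcl5 and Cxcl1 went down with FGF2 on d2.5 and Cxcl2 was too low to test. Cxcl5, on chromosome 5 (90759360-90761624, plus strand), had 64, 88 and 47 counts in Ctrl + vehicle, 1, 1 and 3 in Ctrl + FGF2, and 0, 1 and 2 in Y/T dKD + FGF2. This was the largest change among the 10 genes, a 37.1-fold decrease in the fit (log2 fold change -5.22, SE 0.38, adjusted p = 1.64e-13). The ratio of the summed counts, 199 to 5, was 39.8 with a 95% exact interval of 16.8 to 124, which covers counting error only. Without the third Ctrl + FGF2 library, which held 3 of the 5 counts, the log2 fold change was -5.85. On d5 Cxcl5 had 6, 6 and 6 counts in Ctrl + vehicle, 6, 6 and 5 in Ctrl + FGF2, and 7, 17 and 4 in Y/T dKD + FGF2, which is too low for a fold change.

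Cxcl1, in the same gene cluster (90891241-90893115, plus strand), had 59, 73 and 72 counts in Ctrl + vehicle on d2.5, 11, 17 and 25 in Ctrl + FGF2, and 10, 13 and 10 in Y/T dKD + FGF2. It fell 3.86-fold with FGF2 (log2 fold change -1.95, SE 0.22, adjusted p = 3.47e-09), from 4.78 ± 0.75 to 1.23 ± 0.45 CPM (SD, n = 3). On d5 it had 18, 14 and 18 counts in Ctrl + vehicle, 13, 15 and 13 in Ctrl + FGF2, and 13, 24 and 24 in Y/T dKD + FGF2, and all 3 groups overlapped. No comparison passed the test on that day (FGF2 log2 fold change -0.32, 95% interval -0.99 to 0.34; knockdown 0.59, 95% interval -0.042 to 1.23, adjusted p = 0.15). Without the first knockdown library the knockdown value was 0.86 (adjusted p = 0.0343), while 18 of 19 alternative runs left it uncalled (adjusted p up to 0.458). Cxcl2, whose gene starts 10.8 kb past the end of Cxcl1 (90903871-90905938), had 1 count in each of 3 libraries and 0 in the other 15.

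Cxcl10, on the minus strand of chromosome 5 (92346638-92348889), rose with FGF2 on d2.5 and was higher again with the knockdown. It had 9, 20 and 13 counts in Ctrl + vehicle, 37, 49 and 47 in Ctrl + FGF2, and 49, 57 and 68 in Y/T dKD + FGF2. FGF2 raised it 3.13-fold (log2 fold change 1.64, SE 0.25, adjusted p = 9.8e-07), and the knockdown 1.48-fold (log2 fold change 0.57, SE 0.18, adjusted p = 0.0231). In CPM the 3 groups did not overlap (0.97 ± 0.34, 3.10 ± 0.48 and 4.62 ± 0.68, SD, n = 3). The knockdown call did not hold without the first Ctrl + FGF2 (adjusted p = 0.118), the third Ctrl + FGF2 (adjusted p = 0.0618) or the third knockdown library (adjusted p = 0.157), in DESeq2 (adjusted p = 0.117), or with counts from both strands (adjusted p = 0.113). The gene overlaps Art3 on the opposite strand, which had 11 counts in all in the strand-specific tables. On d5 Cxcl10 had 2 to 11 counts in each library.

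Cxcl14, on the minus strand of chromosome 13 (56288643-56296551) and known from epithelia and fibroblasts, was too low to test on either day. It had 8, 8 and 7 counts in Ctrl + vehicle on d2.5, 2, 0 and 1 in Ctrl + FGF2, and 2, 2 and 0 in Y/T dKD + FGF2. On d5 it had 12, 7 and 23, then 4, 5 and 6, then 1, 3 and 3 counts. On both days every vehicle library was above every library with FGF2. The summed counts were 23 in Ctrl + vehicle and 3 in Ctrl + FGF2 on d2.5, and 42 and 15 on d5, which is too low for a fold change.

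Promoter sequence was at hand for 6 of the 10 members in the RefSeq table of GRCm38.p6 (mm10): Cxcl1, Cxcl2, Cxcl10, Cxcl12, Cxcl14 and Cx3cl1. A set of 4 is shown because they cover the contrasts above, namely the neighbours Cxcl1 and Cxcl2, of which 1 could be read, Cxcl10, which rose, and Cxcl12, which turned its direction. Motifs were searched in the 250 bases before the RefSeq start of each gene, and what is printed is the stretch of these that lies upstream of the annotated gene, 5′ to 3′ on the gene's strand, and capitals mark matches on either strand to the NF-kB consensus, to the AP-1 motif TGANTCA or to the core of the interferon-stimulated response element.
Cxcl1, chr5:90890995-90891240, plus strand: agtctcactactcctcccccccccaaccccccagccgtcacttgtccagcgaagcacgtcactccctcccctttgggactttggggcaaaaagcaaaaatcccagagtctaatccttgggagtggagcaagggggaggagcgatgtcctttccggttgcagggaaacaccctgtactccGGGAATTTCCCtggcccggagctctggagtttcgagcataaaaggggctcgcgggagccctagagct
Cxcl2, chr5:90903649-90903870, plus strand: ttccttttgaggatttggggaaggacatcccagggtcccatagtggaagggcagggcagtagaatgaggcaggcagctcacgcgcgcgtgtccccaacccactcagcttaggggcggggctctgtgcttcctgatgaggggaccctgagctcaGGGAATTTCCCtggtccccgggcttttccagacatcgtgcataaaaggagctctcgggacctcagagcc
Cxcl10, chr5:92348890-92349139, minus strand: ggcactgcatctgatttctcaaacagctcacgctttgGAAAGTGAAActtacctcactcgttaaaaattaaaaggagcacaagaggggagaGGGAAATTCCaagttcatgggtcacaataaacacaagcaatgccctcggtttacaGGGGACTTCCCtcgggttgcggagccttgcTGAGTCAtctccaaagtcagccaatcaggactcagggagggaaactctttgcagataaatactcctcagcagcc
Cxcl12, chr6:117168285-117168534, plus strand: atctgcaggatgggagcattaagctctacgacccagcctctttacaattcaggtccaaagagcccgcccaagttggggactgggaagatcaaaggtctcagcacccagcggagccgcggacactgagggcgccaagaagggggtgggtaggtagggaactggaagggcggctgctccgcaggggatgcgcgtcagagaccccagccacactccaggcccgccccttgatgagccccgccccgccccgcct
Cxcl1 and Cxcl2 share the same 11 letters, GGGAATTTCCC, which hold 2 overlapping matches to the NF-kB consensus, while Cxcl1 had 442 counts over the 18 libraries and Cxcl2 had 3. Cxcl10 held an interferon-response core, 2 separate stretches that match the NF-kB consensus and 1 AP-1 match. Cxcl12 held none of these motifs in its 250 bases. Of the members searched but not shown, Cxcl14 held an interferon-response core and Cx3cl1 held none of these motifs. Among 32536 different RefSeq promoter windows of 250 bases, 7.28% held the NF-kB consensus, 6.73% the AP-1 motif and 2.98% the interferon-response core. The TEAD motif GGAATG, the site of the DNA-binding partners of Yap and Taz, was in 12.6% of all windows and in none of the 6 member windows of 250 bases. A match, or none, describes letters in a short window and not a bound site.

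Over all members, 8 of 8 tested genes were called for FGF2 on d2.5, 5 higher (Ccl2, Ccl7, Ccl5, Cxcl10, Cx3cl1) and 3 lower (Cxcl12, Cxcl1, Cxcl5), where 67.6% of all 13677 tested genes were called (33.5% higher and 34.1% lower). The median log2 fold change of the 8 was 1.38, against 0.0022 over all tested genes. Some members, such as Cxcl5 and Ccl7, passed the filter of d2.5 only through the groups where they were high. For these a difference from vehicle was partly built into being tested, also for the knockdown group. With at least 10 counts in every library, 3 members were called for FGF2. The members were also chosen with earlier results known, so 8 of 8 is not read as a trait of chemokines. On d5, 3 of 5 tested members were called for FGF2, all higher (Cxcl12, Ccl7, Cx3cl1), where 47.2% of 13304 tested genes were called (23.5% higher and 23.7% lower). The median of the 5 was 0.56, against 0.016 over all.

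For the knockdown under FGF2, 1 of 8 tested members was called on d2.5 (Cxcl10, higher), where 24.5% of all tested genes were called (10.8% higher and 13.6% lower). On d5 it was 1 of 5 (Ccl7, higher), where 31.7% were called (15.6% higher and 16.1% lower). With 8 and 5 tested members, these shares are too coarse to set apart from those of all genes. Leaving out single libraries gave 0 to 1 members called on d2.5 and 1 to 2 on d5. Medians were -0.11 against 0.0013 on d2.5 and 0.34 against 0.0034 on d5. The Y/T dKD + FGF2 group against Ctrl + vehicle, which shares its libraries with the other comparisons, gave 8 of 8 calls on d2.5 (background 69.8%, of which 34.1% higher and 35.7% lower) and 4 of 5, all higher, on d5 (background 41.8%, of which 20.7% higher and 21.1% lower). Its values for Cxcl12 were -1.66 and 2.15, for Cx3cl1 1.62 and 0.43, for Ccl7 1.76 and 1.72, and for Ccl2 3.34 and 0.84 on d2.5 and d5.

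**Figure D2:**
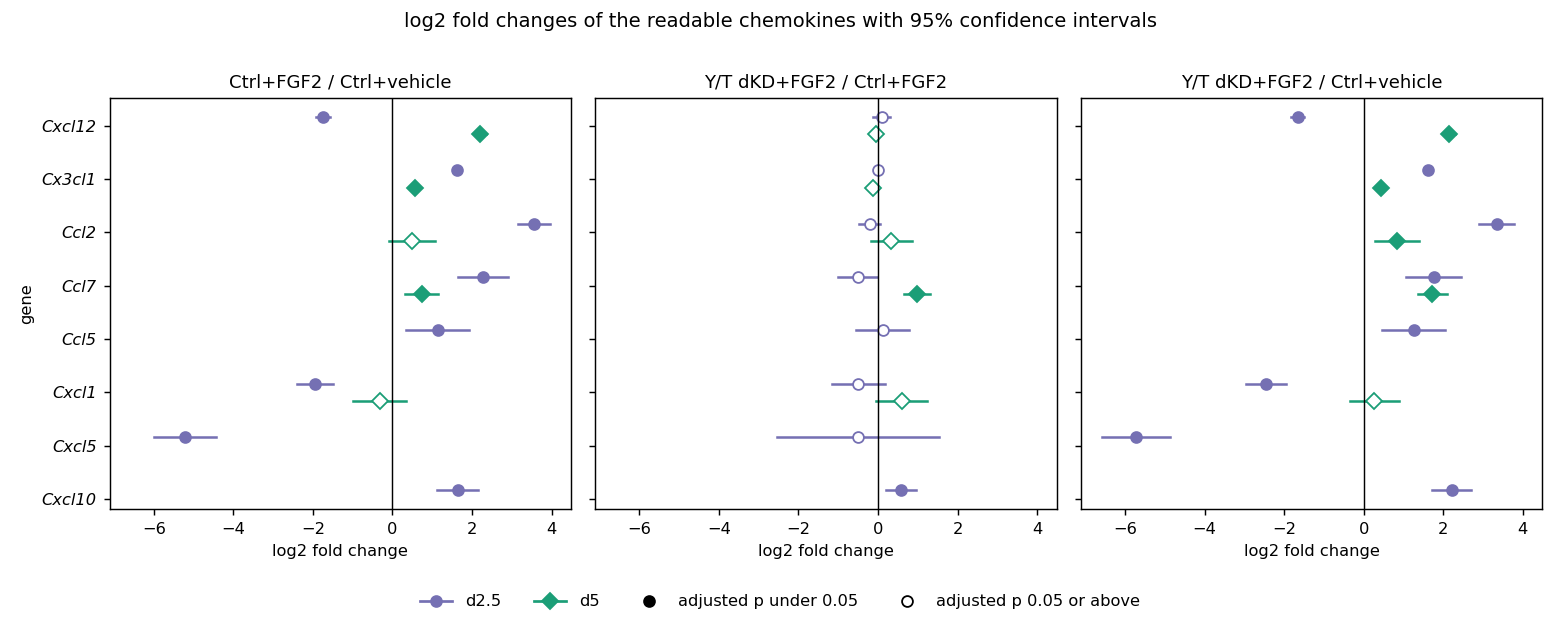
log2 fold changes of the readable chemokines (x axis) with 95% confidence intervals, for 3 comparisons and 2 days. Filled symbols have an adjusted p under 0.05, and genes too low on a day have no symbol. With FGF2 the values spread from -5.22 to 3.56 on d2.5, whereas under the knockdown Cxcl10 on d2.5 and Ccl7 on d5 were the members called.

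Whether the effects differed between the days was tested in 1 fit of all 18 libraries. For FGF2, 7 of 8 tested members differed, where 60.9% of 14198 genes did (31.8% with a higher and 29.1% with a lower value on d5). The 7 include Cxcl5 and Cxcl10, which were too low to read on d5, so their differences rest on the change of d2.5. With at least 10 counts in every library, 3 members were called. The difference, d5 minus d2.5, was 3.93 for Cxcl12 (SE 0.12, adjusted p = 2.62e-21), the only member whose called effects had opposite signs. It was -3.08 for Ccl2 (SE 0.37), -1.56 for Ccl7 (SE 0.37) and -1.09 for Cx3cl1 (SE 0.072), which rose more on d2.5 than on d5, and 1.60 for Cxcl1 (SE 0.41), which fell on d2.5 only. For the knockdown, 1 of 8 differed, where 20.9% of genes did (11.6% higher and 9.35% lower). This was Ccl7, with a difference of 1.49 (SE 0.27, adjusted p = 0.000181) from -0.51 on d2.5 to 0.99 on d5.

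The neighbours of the members in the genome gave further values. Of 28 other chemokine ligands, 11 had no count in any library and 22 had at most 10 counts in every library. On d5 Ccl8, another attractant of monocytes, which starts 79.6 kb from the start of Ccl2, had 62, 62 and 58 counts in Ctrl + vehicle, 101, 94 and 115 in Ctrl + FGF2, and 345, 303 and 227 in Y/T dKD + FGF2. As for Ccl7, no 2 groups overlapped. FGF2 raised Ccl8 1.66-fold (log2 fold change 0.73, SE 0.16, adjusted p = 0.000897) and the knockdown raised it 2.85-fold (log2 fold change 1.51, SE 0.12, adjusted p = 3.1e-08). On d2.5 it had 10 counts in all 9 libraries. Ccl11 and Ccl12, which lie between Ccl7 and Ccl8 and were too low to test, had 1 and 0 counts in the summed Ctrl + FGF2 libraries of d5 and 8 and 14 in the knockdown libraries.

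In the cluster of chromosome 5, Ppbp, a platelet chemokine whose gene starts 6.9 kb past Cxcl5, had 53, 64 and 61 counts in Ctrl + vehicle on d2.5, 2, 2 and 2 in Ctrl + FGF2, and 2, 2 and 0 in Y/T dKD + FGF2. It fell with FGF2 by 4.82 on the log2 scale (SE 0.35, adjusted p = 1.78e-13), next to the 5.22 of Cxcl5 and the 1.95 of Cxcl1. Pf4, Cxcl3 and Cxcl15, which lie between Ppbp and Cxcl1, had at most 2 counts in any group. In the second CC cluster, Ccl9 rose with FGF2 on d2.5 (log2 fold change 1.28, SE 0.55, adjusted p = 0.0397, from 10 to 25 counts), a call that was lost without the first or second vehicle library (adjusted p = 0.0821 and 0.147) or the second Ctrl + FGF2 library (0.66, adjusted p = 0.373), in DESeq2 (0.134), with all 18 libraries in 1 fit (0.054) and with a replicate block (0.0504). Ccl25, on d2.5, fell by 0.58 (SE 0.15, adjusted p = 0.000898). In all, 1 of 4 tested other ligands was higher and 2 were lower with FGF2 on d2.5, 1 of 4 was higher on d5, and for the knockdown 0 of 4 and 1 of 4 (higher) were called, beside 67.6%, 47.2%, 24.5% and 31.7% of all tested genes. The 0 of 4 is from edgeR, and none of the 4 had an unadjusted p under 0.05.

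Markers of other cell types moved with some of these groups at low levels. The summed CPM of the 12 haematopoietic markers was 6.48 to 8.03 in Ctrl + vehicle and 10.4 to 11.3 in Ctrl + FGF2 on d2.5, when Ccl2 and Ccl7 were higher with FGF2. On d5 it was 4.96 to 6.75 in Ctrl + FGF2 and 8.88 to 9.18 in Y/T dKD + FGF2, when Ccl7 and Ccl8 were higher with the knockdown. Nearly all of the sum was Cd14, Cd68 and Csf1r. On d2.5 the tested marker Csf1r fell by 2.57 with FGF2 (adjusted p = 7.42e-06). Cd14 rose by 0.83 with FGF2 on d2.5 (adjusted p = 8.92e-07) and by 0.72 with the knockdown on d5 (adjusted p = 0.0077). The d5 call of Cd14 was lost without the second knockdown library (adjusted p = 0.0502) and in DESeq2 (adjusted p = 0.0804). Cd68 rose by 1.07 with the knockdown on d5 (adjusted p = 0.00197). Of the 12 markers, 5 were at 0 in every library, as given above. The endothelial sum was 3.94 to 4.48 CPM in Ctrl + vehicle and 1.07 to 1.69 in Ctrl + FGF2 on d2.5, and 1.08 to 1.75 and 2.33 to 3.17 on d5. The part of these levels in the chemokine values was not tested.

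**Figure D3:**
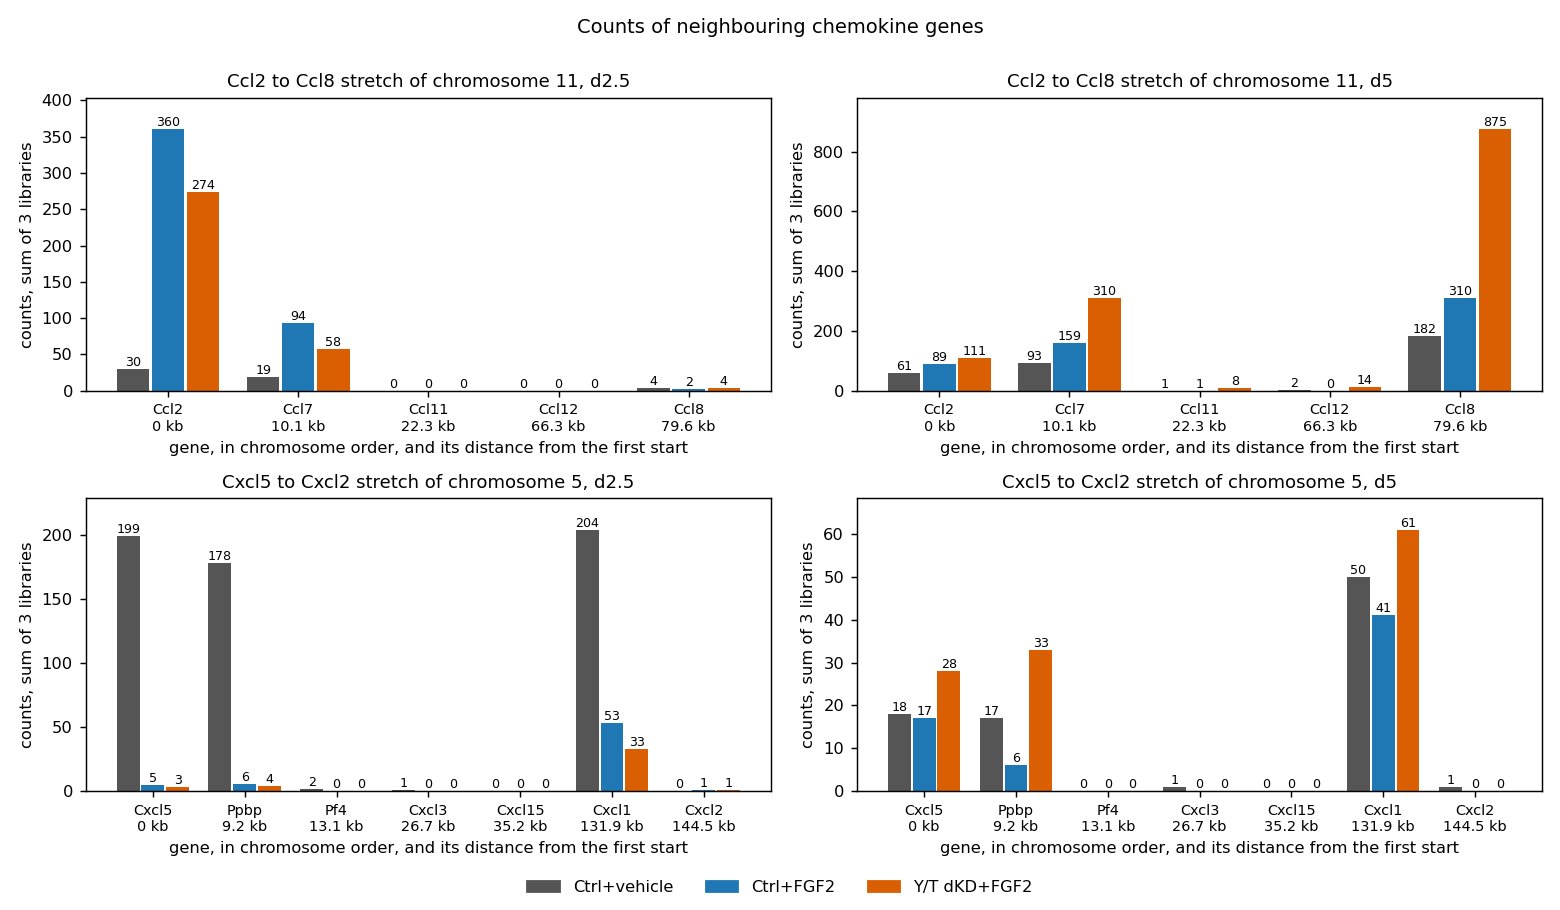
Counts of neighbouring chemokine genes (sum of 3 libraries per group) in chromosome order, with each gene's distance from the first start in kb, for 2 clusters and 2 days. On d2.5 the vehicle bars stand out for Cxcl5 (199), Ppbp (178) and Cxcl1 (204), and on d5 the knockdown bars stand out for Ccl7 (310) and Ccl8 (875).

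Of 22 chemokine receptors with a row, 8 had no count in any library and 17 had at most 10 counts in every library. Receptors of several members were among these: Ccr2 (for Ccl2 and Ccl7) had 0 counts, Cxcr2 (for Cxcl1 and Cxcl5) had 1 count, Cx3cr1 (for Cx3cl1) 2 and Cxcr3 (for Cxcl10) 5 over the 18 libraries. A count of 0 over a library allows up to 3 counts.

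Both receptors of Cxcl12 could be read. Cxcr4 had 11, 20 and 13 counts in Ctrl + vehicle on d5, 33, 57 and 43 in Ctrl + FGF2, and 11, 8 and 6 in Y/T dKD + FGF2. All Ctrl + FGF2 libraries were above all others. Cxcr4 rose 2.92-fold with FGF2 (log2 fold change 1.55, SE 0.24, adjusted p = 4.19e-05) and fell 5.16-fold with the knockdown (log2 fold change -2.37, SE 0.27, adjusted p = 2.84e-06), a fall that Cxcl12 itself did not share. On d2.5 it was too low to test, with 43 counts in the vehicle libraries and 7 in each FGF2 group.

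Ackr3, an atypical receptor that takes up Cxcl12 without G protein signalling, had 521, 501 and 464 counts in Ctrl + vehicle on d2.5, 996, 956 and 1050 in Ctrl + FGF2, and 803, 778 and 766 in Y/T dKD + FGF2. It rose with FGF2 (log2 fold change 1.00, SE 0.053, adjusted p = 5.98e-17) while Cxcl12 fell. On d5 the FGF2 value was 0.10 (SE 0.062, adjusted p = 0.181). The knockdown gave -0.17 on d2.5 (adjusted p = 0.00931) and 0.22 on d5 (adjusted p = 0.00831), small values of opposite sign, and both calls were lost when 1 library was left out (the third knockdown library of d2.5, adjusted p = 0.0614, and the second of d5, adjusted p = 0.074).

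Ackr4, a scavenger of Ccl19, Ccl21 and Ccl25, had 69 counts in the vehicle libraries of d2.5 and 4655 in those of d5. With FGF2 it fell on both days, with log2 fold changes of -3.99 (adjusted p = 1.02e-08) and -0.56 (adjusted p = 1.82e-06), and with the knockdown it fell by a further 0.31 on d5 (adjusted p = 0.00254). The d2.5 value rests on 4 counts in the summed Ctrl + FGF2 libraries. The ratio of the summed counts, 69 to 4, was 17.2 with an exact interval of 6.44 to 65.1 for counting error only. Cxcr6, the receptor of Cxcl16, fell 6.36-fold with FGF2 on d2.5 (adjusted p = 3.03e-10), with 42, 54 and 45 counts against 5, 8 and 9. Ccr7 rose 2.59-fold with the knockdown on d5 (adjusted p = 0.00789, 9, 5 and 5 counts against 21, 14 and 14), a call that DESeq2 did not make (adjusted p = 0.0739). In all, 3 of 3 tested receptors were called for FGF2 on d2.5 (1 higher) and 2 of 4 on d5 (1 higher), and 1 of 3 and 4 of 4 (2 higher) for the knockdown. Of all tested genes, 67.6% and 47.2% were called for FGF2 and 24.5% and 31.7% for the knockdown.

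**Figure D4:**
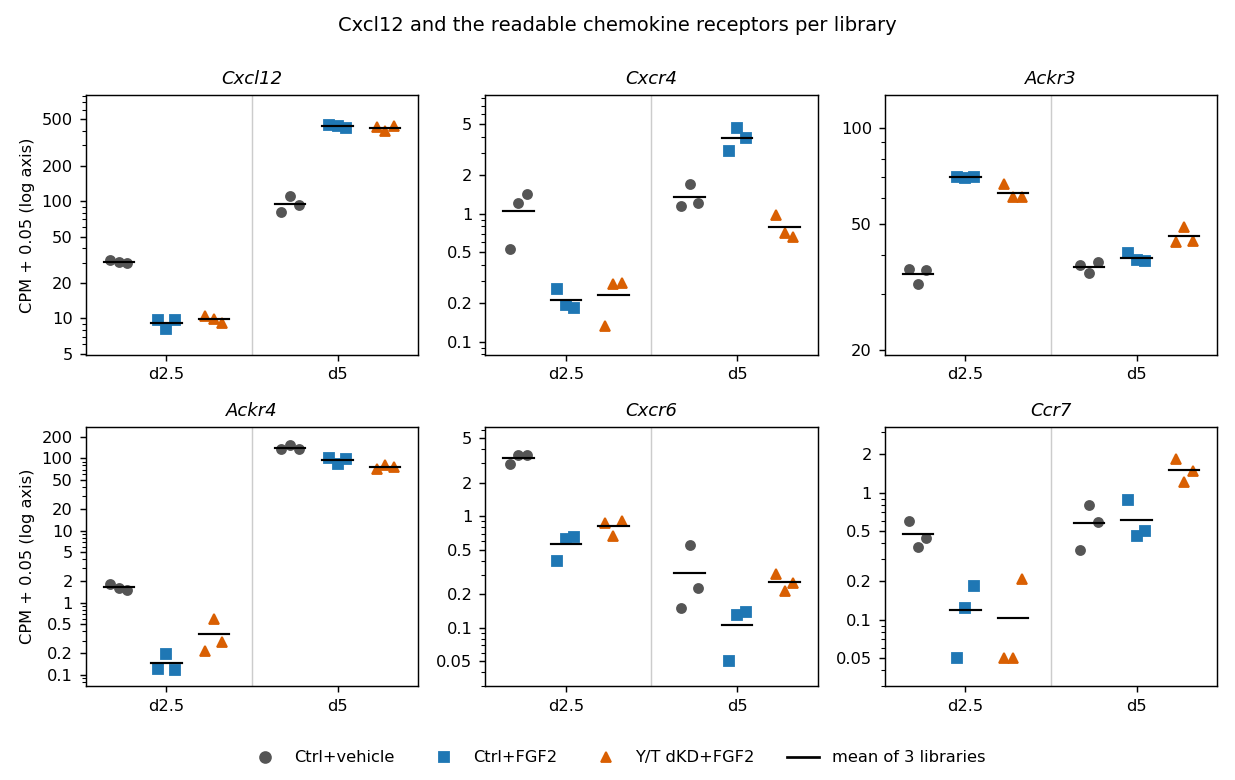
Level of Cxcl12 and of the receptors that could be read on at least 1 day, as CPM + 0.05 on a log axis, in every library (points) with the mean of 3 (bars). On d5 Cxcr4 was highest in Ctrl + FGF2 and low in Y/T dKD + FGF2, where Cxcl12 stayed at its FGF2 level.

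Other lists of genes are given beside the share of all tested genes called in the same comparison. Of 19 NF-kB pathway genes tested on d2.5, 11 were higher and 4 lower with FGF2 (67.6% of all genes called, median 0.19, against 0.0022 over all genes). Those with the largest changes were Traf1 (log2 fold change 2.56, adjusted p = 4.42e-11) and Nfkb2 (0.98, adjusted p = 3.45e-18), a signalling adaptor and an NF-kB subunit, which rose, and Bcl3 (-0.95, adjusted p = 4.28e-07), a co-regulator, which fell. On d5, 9 of 18 were higher and 3 lower (47.2% of all genes called), with Tnip1 (0.75, adjusted p = 5.44e-09) and Nfkbie (0.72, adjusted p = 0.000338), both inhibitors, at the top. For the knockdown, 1 of 19 was higher and 3 lower on d2.5 (24.5% of all genes called), and on d5, 4 of 18 were higher and 4 lower (31.7% of all), led by Nfkbiz (0.90, adjusted p = 9.19e-06) and Bcl3 (0.74, adjusted p = 0.00325).

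Among 16 inflammatory cytokines, receptors and targets tested on d2.5, 6 were higher and 7 lower with FGF2, where 67.6% of all genes were called. Il1rl1, the receptor of interleukin 33, rose by 3.66 (adjusted p = 1.56e-29), the cytokine Lif by 2.98 (adjusted p = 8.87e-15) and the adhesion molecule Vcam1 by 1.95 (adjusted p = 9.01e-21). On d5, 1 was higher and 9 lower with FGF2 (47.2% of all genes called), among them Il1rl1 (-1.49, adjusted p = 5.11e-07), Lif (-1.35, adjusted p = 0.000466) and Ptgs2 (-0.91, adjusted p = 1.46e-08). Under the knockdown 2 of 16 were higher and 3 lower on d2.5 (24.5% of all genes called). On d5, 7 were higher and 3 lower (31.7% of all), with Il1rl1 up by 1.72 (adjusted p = 1.35e-07) and Tnfrsf1b, a receptor of TNF, up by 0.74 (adjusted p = 3.06e-07), in the libraries where Ccl7 and Ccl8 were high.

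Of 14 interferon-response genes tested on d2.5, 2 were higher and 6 lower with FGF2 (67.6% of all genes called), including Gbp2 (-1.51, adjusted p = 2.21e-12) and Stat2 (-0.76, adjusted p = 1.36e-13), while Cxcl10 was 3.13-fold higher. Under the knockdown on d2.5, when Cxcl10 was called higher, 6 of 14 were higher and 1 lower, where 24.5% of all genes were called (Ifit3 0.96, Oasl2 0.73 and Ifit1 0.68, adjusted p = 0.000745, 0.000566 and 8.95e-05). On d5, 8 were higher and 1 lower with FGF2 (47.2% of all genes called), and 2 were higher and 3 lower with the knockdown (31.7% of all), of which Ifit3 had the largest value (-1.11, adjusted p = 0.000138). Of 6 enzymes that cut or shed chemokines, 4 were tested on d2.5 and all 4 were lower with FGF2 (67.6% of all genes called, 34.1% lower), among them Mmp14 (-1.22), Mmp2 (-1.18) and Adam10 (-0.64), an enzyme that sheds Cx3cl1 from the membrane. On d5, 3 of 5 were higher and 1 lower with FGF2, where 47.2% of all genes were called (Mmp9 1.69, Adam10 0.29, Mmp14 -0.38), and 2 were higher and 2 lower with the knockdown (31.7% of all).

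As a description of likeness, genes with a high Pearson r of log2 CPM over the 18 libraries were listed for each member read on both days. The points share 6 groups and 2 days, so a gene that differs between groups in the same order scores high. For Cxcl12 these were Sox4 (r = 0.997), H3f3a (r = 0.993) and Cst3 (r = 0.992), and for Cx3cl1 they were Klhdc8a (r = 0.983), Itga2 (r = 0.971) and Lamb1 (r = 0.971). For Ccl2 they were Lrrc8b, Arhgap22 and Zfp518b (r = 0.964 to 0.966). For Ccl7 they were Angptl4, Rgl1 and Ier5 (r = 0.956 to 0.965), and for Cxcl1 they included Dlst (r = 0.916) and Prrx2 (r = 0.91).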

How the data were processed

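Polyadenylated RNA of 18 libraries, 3 in each of 6 groups, was read as counts per gene. Per the labels, STAR, featureCounts, Picard and FastQC were used with mm10 (versions and settings are not given in the sources used here). The authors deposited raw counts per Ensembl gene for both strands together and for each strand. Counts of the reverse strand were taken here because they held 96.0% to 96.6% of the strand-specific counts. Reads assigned to no gene (27.0% to 34.4%) were left out. Of 55335 identifiers, 54587 were matched to GENCODE M21, and 5 of the listed other genes were not analysed here.

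Each day was fitted alone (9 libraries, 3 groups) with edgeR 4.0.16 (R 4.3.3): TMM factors, filterByExpr with a minimum count of 10, quasi-likelihood tests without covariates, and Benjamini-Hochberg adjustment over all tested genes, with a threshold of 0.05. Differences between the days came from 1 fit of the 18 libraries. Printed CPM used the TMM factors of the 18 libraries, and RPKM the union exon length. Intervals are 95%. The scripts were tested on simulated data. Alternatives included DESeq2 1.42.0, other scalings, filters and strands, and leaving out each library. The members and gene lists were chosen with earlier results of these data known. Members were all named, and of other lists up to 3 called genes with the largest changes and a mean log2 CPM of at least 1, chemokine ligands and receptors apart, which were named freely. Replicate numbers showed no clear pairing of the libraries, though small correlations cannot exclude it. A few genes that this rule selects are not reported here. Markers of other cell types were named after their values were seen. Exact intervals reflect counting error alone.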

Additional observations from a re-analysis of the deposited data

Results flagged for a closer look

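These results are listed because the effect of 1 treatment differed between d2.5 and d5 in the test of the difference itself (d5 minus d2.5, edgeR, adjusted p under 0.05). The day is also the batch, so the 2 cannot be told apart. For FGF2 the log2 differences were 3.93 for Cxcl12 (adjusted p = 2.62e-21), -3.08 for Ccl2 (2.63e-08), -1.56 for Ccl7 (0.000584), 1.60 for Cxcl1 (0.00122) and -1.09 for Cx3cl1 (9e-14), which could be read on both days. They were 5.06 for Cxcl5 (adjusted p = 1.73e-06), -2.06 for Cxcl10 (0.00502) and 3.29 for Ppbp (0.00368), which were too low on d5, so that their differences rest on the change of d2.5. For the knockdown the log2 difference was 1.49 for Ccl7 (adjusted p = 0.000181).

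Among receptors the FGF2 difference was -0.92 for Ackr3 (adjusted p = 9.05e-11) and 3.39 for Ackr4 (8.29e-06). It was 4.08 for Cxcr4 (adjusted p = 2.07e-07) and 2.45 for Ccr7 (0.0193), both too low on d2.5. The knockdown difference was 0.39 for Ackr3 (adjusted p = 0.000544) and -2.54 for Cxcr4 (0.0396). The calls for Ccr7 (adjusted p up to 0.0699) and for the knockdown of Cxcr4 (adjusted p up to 0.151) were lost without some single libraries, and that for Ppbp without the third Ctrl + FGF2 library of d5 (2.35, adjusted p = 0.149).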

How the results depend on the processing

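Over 55 values of members, 1126 alternative values were computed, and 1085 kept their direction and their side of the threshold. Of the 33 called values, 0 changed direction under any alternative run. A filter of at least 10 counts in every library left fewer members to test, and 3 were called for FGF2 on d2.5, 3 for Y/T dKD + FGF2 against vehicle on d2.5, 3 for the FGF2 difference between days, and 0 for the knockdown on d2.5 and for its difference between days. For the knockdown on d2.5, 0 members were called with DESeq2, with unstranded counts and with an adjusted p under 0.01, where 2057 genes were called, and 1781 genes at that threshold for the knockdown difference between days. For the knockdown on d5, 2 members were called with upper-quartile factors and with all 18 libraries in 1 fit, Cx3cl1 being the second. The sign of the near-zero knockdown value of Cx3cl1 on d2.5 turned to 0.002 (DESeq2), 0.0048 (RLE), 0.0029 (upper quartile) and 0.0041 (all 18 libraries).

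Leaving out single libraries gave 7 to 8 members called for FGF2 on d2.5, 3 to 4 on d5, 0 to 1 and 1 to 2 for the knockdown, and 7 and 1 to 2 for the differences between days. For the knockdown on d2.5, Ccl5 ranged from -0.19 to 0.34, Cxcl5 from -1.36 to 0.13 and Cx3cl1 from -0.041 to 0.014. For the difference in the knockdown effect Ccl5 ranged from -0.44 to 0.24 and Cxcl10 from -0.28 to 0.79, and for that in the FGF2 effect Ccl5 ranged from -1.26 to 0.65. Samples with the same replicate number did not clearly deviate together (r from -0.072 to 0.11, with 1 of 18 pairs over 0.1, and 5 of 18 libraries correlating best with their own number). Between Ctrl + vehicle and Ctrl + FGF2 on d5, r was 0.0975, 0.1149 and 0.0151 for the same numbers, so a pairing is not excluded. With a replicate block, the same numbers of members were called in all 8 comparisons, 9180 and 6352 genes were called for FGF2 and 3226 and 4354 for the knockdown on d2.5 and d5, and 0 of 55 member values changed their call. Of 118 values of all named genes, members included, 1 did (Ccl9 for FGF2 on d2.5, adjusted p = 0.0504). Depth limited 5 of the 10 members on d5 and 2 on d2.5.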
